A study of Mus musculus with 6 samples.

Results

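The genes described here encode receptors of the TREM family (Treml4, Trem1, Treml2 and Trem2), receptors of the CD300 family (Cd300lf, Cd300lb and Cd300a) and the small signalling adaptors that such receptors use (Tyrobp, which encodes DAP12, Hcst, which encodes DAP10, and Fcer1g, the common gamma chain of Fc receptors). Rows were selected by gene symbol, which gave 10 genes of the 18749 listed, and all 10 passed the filter on low counts that left 14466 genes for testing. Treml4 was picked because it was lower in one group of these same libraries, so its values are given as a description with no test. The other 9 were listed by family or adaptor, with earlier results on these libraries known.

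The series asks, by its title, about S-nitrosylated septin-2 of macrophages in aortic aneurysm. RNA was sequenced from aortas of mice that lack apolipoprotein E (Apoe-/-) and carried transplanted bone marrow. In 3 libraries the marrow donor was Apoe-/- (control recipients), and in 3 it was Apoe-/-Sept2C111A (Sept2C111A recipients), a donor whose septin-2, by the allele's name, carries alanine in place of a cysteine. All recipients and all donors lacked Apoe, and every mouse received angiotensin II (Ang II) for 28 days, a treatment that causes aortic aneurysms in such mice. The altered septin-2 is thus confined to cells of marrow origin, all blood lineages included, while the wall and any remaining host blood cells are unaltered. Neither the age, sex and diet of the mice nor the conditioning and donor cell share is stated in the sources used.

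Many TREM receptors are single-pass membrane proteins of myeloid cells with a short tail that cannot signal by itself. Most of them pair through the membrane with DAP12, whose tail holds an activation motif (ITAM) that recruits the kinase SYK. DAP10 instead carries a motif that recruits phosphoinositide 3-kinase, and the Fc receptor gamma chain carries an ITAM and serves Fc receptors and several C-type lectins. TREM1 amplifies inflammatory signals in neutrophils and monocytes, whereas TREM2 senses lipids and cell debris on tissue macrophages, including those of arterial plaques. The CD300 family holds activating members that use adaptors and inhibitory members that carry their own phosphatase-recruiting motifs (ITIMs).

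Levels are given in CPM (counts scaled to a common library size) with sizes scaled by the trimmed mean of M values, as mean ± SD where groups are summarised (n = 3 libraries per group). Values listed for a group follow the library numbers 1, 2 and 3. Library totals ran from 17082719 to 20494928 expected counts. Among the libraries, control 1 stood apart in neutrophil markers. The 12 markers summed to 3064 CPM there and to 90.4 and 336 CPM in controls 2 and 3. In Sept2C111A recipients they summed to 16.96 to 29.2 CPM. There 9 of the 12 were lower without overlap (11.9% of all genes tested), while Camp, Ngp and Ly6g overlapped. Ly6g was at 1.73, 0 and 0.148 CPM in the controls and at 0 in every Sept2C111A library. Control 3 stood apart in the wall, with 7 smooth muscle markers at 5950 CPM against 16150 to 23980 CPM in the other 5 libraries. The 6 adventitial fibroblast markers summed to 25610 CPM there against 6896 to 12590 CPM elsewhere, but Col1a1 alone was at 22030 CPM in control 3. Lum (1057 CPM) was also highest in that library, whereas Pi16 (285 CPM) and Dpt (415 CPM) were lowest there. Pdgfra and Dcn were neither. Macrophage markers (12 genes) were abundant in every library, at 3196 to 4260 CPM in control recipients and 2030 to 3047 CPM in Sept2C111A recipients. Lyz2 had the highest mean of the 12 (1449 ± 602.5 and 967 ± 300 CPM), and its groups overlapped. Only 3 of the 12, Cd68, Fcgr1 and Itgam, were lower without overlap, against 11.9% of all genes tested. Csf1r, Adgre1, Mertk, Mrc1, Cd14 and the C1q genes overlapped. Endothelial markers (5 genes) summed to 519 to 1200 CPM, so all 3 wall cell types were represented in each library. For the 10 genes, and for the related lists, values that rest most on control 1 are also given without it.

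All 10 genes had a lower mean in Sept2C111A recipients, and for 8 of the 10 every control library lay above every Sept2C111A library. Of all genes tested, 11.9% were lower with groups that did not overlap. The exceptions were Trem2 and Hcst, and Treml4, picked for its fall, is one of the 8. The count was 9 of 10 without control 1 (17.7% of all genes) or control 2 (20.1%), 8 of 10 without control 3 (15.3%) or without Sept2C111A library 1 (15.5%), 2 (19.1%) or 3 (14.8%), and 9 of 10 with control 2 as the lone control (25% of all genes). In edgeR's quasi-likelihood test adjusted over 14466 genes, 0 of the 9 genes other than Treml4 passed at 0.05 (0% of all genes were called lower, smallest adjusted p 0.316), while 7 of the 9 had an unadjusted p under 0.05, against 8.83% of all genes for that p in the lower direction. DESeq2 called 7 of the 9 lower, where it called 2.89% of the genes it tested lower. On simulated counts, with 50 genes changed at each of the log2 sizes 1, 2, 3 and 4, DESeq2 made 76 false calls. It recovered 12, 39, 46 and 47 of the changed genes, and edgeR made 9 false calls. DESeq2 calls here and below, and how often they held, are therefore weak evidence by themselves. With 1 library left out DESeq2 called 6, 7 and 4 of the 9 without controls 1, 2 and 3 (1.72%, 6.65% and 1.76% of genes called lower) and 7, 3 and 2 without Sept2C111A libraries 1, 2 and 3 (1.43%, 2.83% and 0.636%). Trem1 and Treml4 passed the filter on low counts only through the controls, the group where they are high. In Sept2C111A recipients they rested on 4 to 15 reads per library. Because tissue and not sorted cells was sequenced, fewer cells of a type and less RNA per cell cannot be told apart in any of these values.

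**Figure D1:**
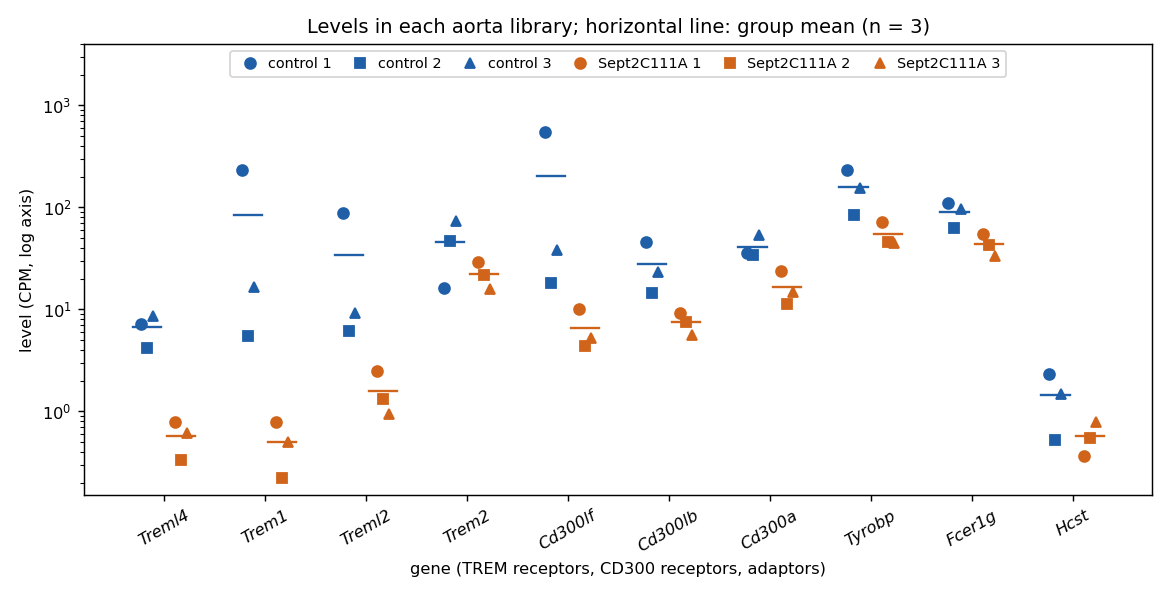
Level of each gene (CPM, log axis) in the 6 aorta libraries, controls in blue and Sept2C111A recipients in orange, with a line at each group mean. Treml4, picked for its fall, separates the groups. Trem1, Treml2 and Cd300lf reach their highest value in control 1. Trem2 is the single gene for which control 1 lies below 2 of the Sept2C111A libraries.

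Treml4 (ENSMUSG00000051682.15, chromosome 17, 48264295 to 48275360, plus strand, mm10) encodes a TREM-like receptor known from dendritic cells, macrophages and patrolling monocytes, where it takes part in the uptake of dead cells and in nucleic acid sensing. It stood at 7.201, 4.21 and 8.65 CPM in controls 1, 2 and 3 (129, 80 and 175 reads) and at 0.788, 0.33 and 0.612 CPM in the Sept2C111A recipients (15, 6 and 11 reads). The lowest control was 5.34 times the highest Sept2C111A library. The means, 6.69 ± 2.27 and 0.577 ± 0.230 CPM, differed 11.6-fold, a log2 fold change of -3.52 (SE 0.46) that described the gene's selection and was not tested. Its controls differed from each other by 2.06-fold, against 1.56-fold for Cd300a, 1.77-fold for Fcer1g and 42.5-fold for Trem1. The log2 fold change stayed between -3.24 and -3.80 with any 1 library left out. With control 2 as the lone control it was -2.85. All of these values come from the libraries in which Treml4 was picked, so they describe its fall and give no support to it.

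The patrolling monocyte is among the cells Treml4 is best known from. The list of classical and nonclassical monocyte markers (9 genes) summed to 827, 830 and 578.5 CPM in controls 1, 2 and 3 and to 728 to 1073 CPM in Sept2C111A recipients, so the groups overlapped, although 6 of the 9 genes had a lower mean in Sept2C111A recipients. Ace and Nr4a1, which vessel wall cells also express, made up most of those sums. Spn, the leukosialin of patrolling monocytes, was at 9.77, 6.78 and 14.1 CPM in the control recipients, against 11.6, 6.24 and 6.45 CPM in the Sept2C111A recipients. Cx3cr1, the fractalkine receptor, was at 12.0, 38.9 and 45.4 CPM in the control recipients, against 22.6, 22.4 and 9.23 CPM in Sept2C111A recipients. Both overlapped between groups. Itgal, an integrin of leukocytes in general, was at 87.4, 9.47 and 19.8 CPM in the control recipients, against 8.20, 2.60 and 4.62 CPM in the Sept2C111A recipients (DESeq2 adjusted p = 0.0145). Plac8, high in classical monocytes, was at 43.9, 28.1 and 123.8 CPM in the control recipients, against 26.7, 17.5 and 15.4 CPM in the Sept2C111A recipients (DESeq2 adjusted p = 0.059). These were the 2 of the 9 markers that were lower without overlap, and the part of these cells in the Treml4 values was not tested. Among all genes with a mean count of at least 10 (14387 genes outside the list), those whose centred log2 levels lay nearest to those of Treml4 over the 6 libraries were Crmp1, Clec4n, Rab15 and Pcdh10, at a mean absolute difference of 0.277 to 0.359 on the log2 scale. The nearest of the 9 other genes described here was Cd300lb at 0.786, and the farthest was Trem1 at 1.35.

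The upstream sequences of 3 neighbouring TREM genes and of Cd300lf are shown because these genes had different patterns over the libraries: Treml4 low in all Sept2C111A recipients and even among controls, Trem1 and Cd300lf dominated by control 1, and Trem2 low in control 1. Each is the 250 bases before the gene's RefSeq start (GRCm38.p6, the mm10 assembly), on the gene's own strand, at chr17:48264045-48264294 (Treml4), chr17:48232489-48232738 (Trem1), chr17:48346151-48346400 (Trem2) and chr11:115133993-115134242 (Cd300lf, minus strand). Capitals mark both copies of the longest exact repeat in Treml4 and, in the others, GAGGAA (the core that the myeloid factor PU.1 binds) or TGANTCA (the AP-1 site) on either strand.
Treml4: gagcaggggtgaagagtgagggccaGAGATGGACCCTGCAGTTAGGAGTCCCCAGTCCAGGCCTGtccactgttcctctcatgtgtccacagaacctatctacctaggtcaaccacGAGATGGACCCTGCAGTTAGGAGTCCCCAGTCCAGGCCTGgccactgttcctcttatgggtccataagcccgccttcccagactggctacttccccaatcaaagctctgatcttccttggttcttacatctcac
Trem1: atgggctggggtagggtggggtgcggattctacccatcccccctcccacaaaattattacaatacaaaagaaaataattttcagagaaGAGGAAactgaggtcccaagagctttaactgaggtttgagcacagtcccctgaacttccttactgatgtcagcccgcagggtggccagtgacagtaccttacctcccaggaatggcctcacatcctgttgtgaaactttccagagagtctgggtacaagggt
Trem2: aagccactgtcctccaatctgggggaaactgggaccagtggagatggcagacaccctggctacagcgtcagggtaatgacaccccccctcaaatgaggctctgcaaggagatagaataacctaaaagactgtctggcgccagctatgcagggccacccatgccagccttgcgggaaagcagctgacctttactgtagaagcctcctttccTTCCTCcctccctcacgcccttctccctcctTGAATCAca
Cd300lf: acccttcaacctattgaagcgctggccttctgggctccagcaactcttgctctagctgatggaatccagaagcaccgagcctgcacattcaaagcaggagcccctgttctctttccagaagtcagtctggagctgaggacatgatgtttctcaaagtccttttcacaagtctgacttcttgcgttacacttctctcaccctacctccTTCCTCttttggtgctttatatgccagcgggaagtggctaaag
The Treml4 window held the same 40 bases in 2 copies, starting 225 and 134 bases before the gene start, and 0.454% of 32841 promoter windows held an exact repeat of at least that length. GAGGAA occurred in 5 of the 8 genes with an entry (Treml4 at 178 and 87 bases before the start, Trem1 at 162, Trem2 at 40, Cd300lf at 43 and Cd300a at 39), against 23.3% of all windows. TGANTCA occurred in 1 of the 8, Trem2, 9 bases before the start, against 6.75% of all windows. The longer letters GAGGAAGT occurred in 0 of the 8 and in 2.44% of all windows. A match describes the letters of the window and shows no binding.

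Trem1 (ENSMUSG00000042265.13, chromosome 17, 48232768 to 48246924) encodes the receptor that amplifies neutrophil and monocyte activation. It stood at 230 CPM in control 1, at 5.42 and 16.4 CPM in controls 2 and 3, and at 0.788, 0.221 and 0.501 CPM in the Sept2C111A recipients, the last 3 resting on 15, 4 and 9 reads. Control 1 alone held 91.4% of the control sum, yet the lowest control was still 6.87 times the highest Sept2C111A library. In edgeR's fit the difference was a log2 fold change of -7.35 with SE 1.74 (edgeR adjusted p = 0.316, DESeq2 adjusted p = 0.000121), and -4.40 without control 1. Its DESeq2 call held in 6 of 6 fits with 1 library dropped, while edgeR did not call it in any (smallest adjusted p 0.0942, without control 2).

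Treml2 (ENSMUSG00000071068.7, chromosome 17, 48299498 to 48312533), a TREM-like receptor of neutrophils, macrophages and lymphocytes that does not use DAP12, had the same shape at a lower level. It was at 87.9, 6.10 and 9.15 CPM in the control recipients, against 2.47, 1.33 and 0.946 CPM in the Sept2C111A recipients. Control 1 held 85.2% of the control sum. Between groups this gave a log2 fold change of -4.43 with SE 1.19 (edgeR adjusted p = 0.316, DESeq2 adjusted p = 0.000699), or -2.25 without control 1. DESeq2 called Treml2 in 6 of 6 fits with 1 library left out, and edgeR did not call it in any (smallest adjusted p 0.112, without control 2). The neutrophil marker sums, 3064 CPM in control 1, were highest in the same library and also lower in every Sept2C111A library; their part in the values of Trem1 and Treml2 was not tested. B cell markers, which mark another cell type with TREML2, summed to 35.6, 11.2 and 14.2 CPM in the controls, compared with 2.28 to 8.46 CPM in Sept2C111A recipients, again highest in control 1, and their part was not tested.

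Trem2 (ENSMUSG00000023992.14, chromosome 17, 48346401 to 48354147), the lipid-sensing receptor of tissue macrophages, did not share that shape. It was at 16.3, 46.9 and 73.1 CPM in the control recipients, against 29.1, 21.7 and 16.0 CPM in the Sept2C111A recipients. Control 1 thus lay below Sept2C111A libraries 1 and 2, and the groups overlapped. The log2 fold change was -1.03 with SE 0.53 (edgeR adjusted p = 0.378, DESeq2 adjusted p = 0.288). It was -0.51 without control 3 and -1.42 without control 1, where DESeq2 called it (adjusted p = 0.012). C1qa, a complement gene of resident macrophages, was also lowest among controls in control 1 (119 CPM, against 281 and 373 CPM in controls 2 and 3). It was at 314, 231 and 211 CPM in the Sept2C111A recipients, a log2 fold change of -0.03. From the same macrophage list, C1qb, C1qc, Csf1r, Adgre1, Mertk and Lyz2 were also lowest among controls in control 1. Cd14, Fcgr1 and Itgam were instead highest there (477, 81.7 and 985 CPM), and Cd68 and Mrc1 were neither. The part of these genes in the Trem2 values was not tested.

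The log2 ratio of Trem1 to Trem2 within a library (CPM + 0.1 for both genes, not corrected for length) summarises the contrast. Among controls the ratio took the values 3.81, -3.09 and -2.15, and among Sept2C111A recipients the values -5.04, -6.09 and -4.74. Control 1 was the single library with more Trem1 than Trem2 counts. The ratio differed by -4.81 between the group means (-0.48 ± 3.74 and -5.29 ± 0.71), or by -2.67 without control 1. In an exact two-sided permutation test p was 0.1, the smallest that 3 libraries against 3 allow.

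**Figure D2:**
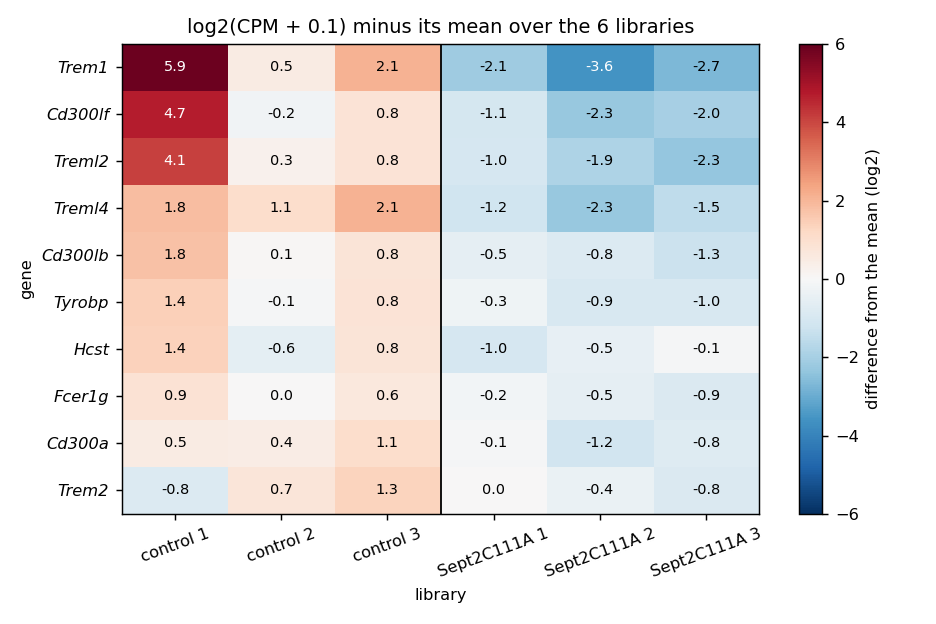
Centred level of each gene, log2(CPM + 0.1) minus its mean over the 6 libraries, by library. Red marks levels above the gene's mean and blue levels below it: Trem1, Cd300lf and Treml2 peak in control 1, Treml4 is high in all 3 controls, and Trem2 is below its mean in control 1.

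Cd300lf (ENSMUSG00000047798.15, chromosome 11, 115116214 to 115133992) encodes an ITIM-bearing CD300 receptor that binds phosphatidylserine and ceramide and restrains myeloid cells. It was at 551, 18.3 and 38.2 CPM in the control recipients, against 10.1, 4.37 and 5.23 CPM in the Sept2C111A recipients. The groups did not overlap, and control 1 held 90.7% of the control sum. The log2 fold change was -4.94 with SE 1.42 (edgeR adjusted p = 0.316, DESeq2 adjusted p = 0.00991) and -2.09 without control 1. The DESeq2 call was lost when either Sept2C111A library 2 or 3 was dropped. The neutrophil markers were highest in the same control library, and their part in the Cd300lf values was not tested.

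Cd300lb (ENSMUSG00000063193.8, chromosome 11, 114922781 to 114934386), an activating CD300 receptor that signals through DAP12, was at 45.9, 14.4 and 23.4 CPM in the control recipients, against 9.30, 7.57 and 5.56 CPM in the Sept2C111A recipients. The lowest control was 1.54 times the highest Sept2C111A library. Its log2 fold change was -1.90 with SE 0.45 (edgeR adjusted p = 0.316, DESeq2 adjusted p = 0.00612), or -1.33 without control 1. DESeq2 called it in 5 of 6 fits with 1 library left out, the exception being the fit without Sept2C111A library 3.

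Cd300a (ENSMUSG00000034652.12, chromosome 11, 114890041 to 114904654), an inhibitory receptor for phosphatidylserine and phosphatidylethanolamine, had the narrowest spread among controls of all 10 genes. It was at 35.8, 34.3 and 53.4 CPM in the control recipients, against 24.0, 11.3 and 14.7 CPM in the Sept2C111A recipients. Control 1, rich in the neutrophil markers, was not the highest library for this gene. Those markers were also lower in every Sept2C111A library by their sum, and their part in the Cd300a values was not tested. Its log2 fold change was -1.30 with SE 0.32 (edgeR adjusted p = 0.316, DESeq2 adjusted p = 0.016), and the DESeq2 call was lost when control 3 or either of Sept2C111A libraries 2 and 3 was dropped. The counts of Cd300a and Cd300lf were fractional in all 6 libraries and those of Treml2 in 4, so part of their reads had been divided with similar genes, while the other 7 genes held whole numbers throughout.

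Tyrobp (ENSMUSG00000030579.10, chromosome 7, 30413760 to 30417585), the DAP12 adaptor, was at 235, 83.8 and 155 CPM in the control recipients, against 72.5, 45.5 and 44.5 CPM in the Sept2C111A recipients. The groups were separate by a narrow margin, since the lowest control was 1.16 times the highest Sept2C111A library. For this adaptor the log2 fold change was -1.54 with SE 0.40 (edgeR adjusted p = 0.316, DESeq2 adjusted p = 0.0143) and -1.13 without control 1. DESeq2 called it in 2 of 6 fits, those without control 2 and without Sept2C111A library 1. The 5 genes whose pattern over the 6 libraries lay nearest to that of Tyrobp, of 12745 with a mean count of at least 50, were Aim2, Gpsm3, Btk, Cotl1 and Was, at a mean absolute difference of 0.0763 to 0.103 on the log2 scale. Among the genes described here the nearest was its partner Cd300lb at 0.197 and the farthest Trem1 at 2.09.

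Fcer1g (ENSMUSG00000058715.11, chromosome 1, 171229572 to 171234365), the gamma chain, was at 111, 62.7 and 95.5 CPM in the control recipients, against 55.0, 42.4 and 33.2 CPM in the Sept2C111A recipients. The groups did not overlap, with the lowest control at 1.14 times the highest Sept2C111A library. The log2 fold change was -1.04 with SE 0.27 (edgeR adjusted p = 0.316, DESeq2 adjusted p = 0.0306), or -0.85 without control 1. DESeq2 called Fcer1g in the same 2 fits as Tyrobp. Mast cells and basophils also express this chain. The 9 markers of mast cells and basophils summed to 158, 38.0 and 53.6 CPM in the controls. In the Sept2C111A recipients they summed to 66.6, 34.9 and 67.0 CPM, with overlapping groups. Hdc, a gene of basophils and neutrophils at 117 CPM in control 1, made up most of the highest sum. The part of these cells in the Fcer1g values was not tested.

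Hcst (ENSMUSG00000064109.8, chromosome 7, 30417712 to 30419854), the DAP10 adaptor, lies tail to tail with Tyrobp, their annotated ends 126 bases apart. It was at 2.34, 0.526 and 1.48 CPM in the control recipients, against 0.368, 0.553 and 0.779 CPM in the Sept2C111A recipients, which rest on 7 to 42 reads per library. The groups overlapped, since control 2 lay below Sept2C111A libraries 2 and 3. The log2 fold change of -1.35 with SE 0.62 (edgeR adjusted p = 0.356, DESeq2 adjusted p = 0.306) was -0.82 without control 1, and 0.10 with control 2 as the lone control.

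**Figure D3:**
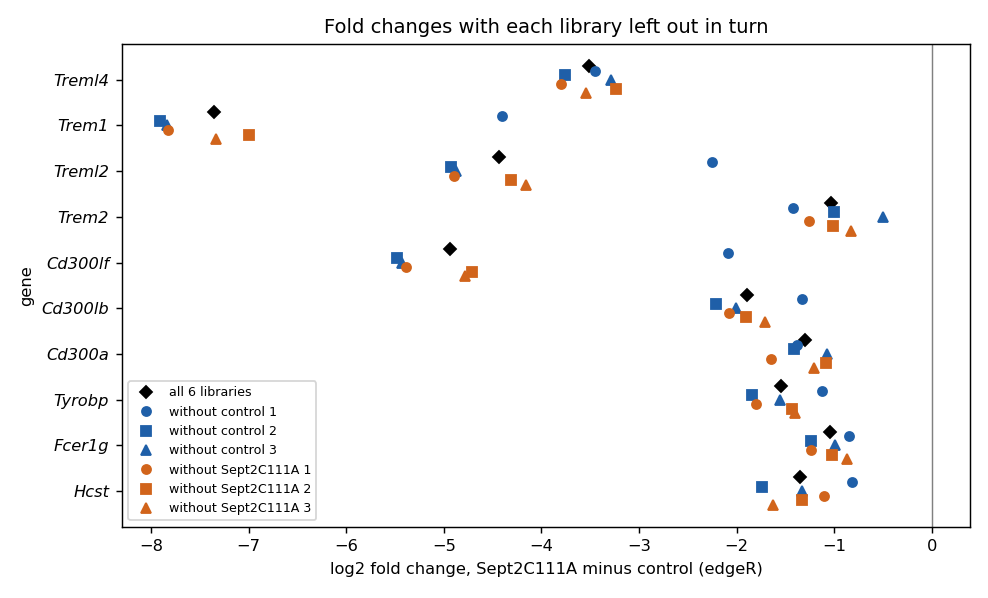
Log2 fold change of each gene (Sept2C111A minus control, edgeR) with all 6 libraries (diamonds) and with each library left out in turn. All values lie below 0. Leaving out control 1 moves Trem1 to -4.40, Treml2 to -2.25 and Cd300lf to -2.09. Treml4, picked for its fall in these libraries, ranges from -3.24 to -3.80.

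Levels of different genes were compared per kilobase of merged exons. In Sept2C111A recipients Tyrobp was highest (81.2 CPM per kb, range 66.6 to 109), followed by Fcer1g (49.8, range 38 to 62.9), and these ranges did not overlap each other or those of the receptors. The receptors came next, with Trem2 at 4.50, Cd300a at 3.52, Cd300lb at 2.56 and Cd300lf at 1.28 CPM per kb, and each of these overlapped its neighbour in the order. Hcst, at 0.784, overlapped Cd300lf above it but not Treml2 below it. Treml2 at 0.321, Treml4 at 0.289 and Trem1 at 0.168 CPM per kb closed the order and overlapped in turn. In control recipients Tyrobp (236 CPM per kb) and Fcer1g (103) again had the highest means, but every gene's range overlapped that of the next, and Cd300lf (39.3) and Trem1 (28.0) took the third and the fourth place through control 1. Merged exons are longer than most single transcripts, so these levels are approximate.

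Set against the adaptor, Trem2 per kilobase amounted to 7.55% and 6.38% of Tyrobp in controls 2 and 3 and to 5.41%, 6.44% and 4.84% in Sept2C111A libraries 1, 2 and 3, but to 0.936% in control 1. Trem1 amounted to 21.8% of Tyrobp in control 1, to 1.44% and 2.36% in controls 2 and 3 and to 0.108% to 0.251% in Sept2C111A recipients. Treml4 amounted to 1.02%, 1.68% and 1.87% of Tyrobp in controls and to 0.363%, 0.244% and 0.460% in Sept2C111A recipients. Because Treml4 was picked for its fall, this difference describes that choice and was not tested. Fcer1g amounted to 36.1% to 57.07% of Tyrobp in controls and to 57.02% to 71.2% in Sept2C111A recipients, ranges that just overlapped.

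The TREM receptors lie in one cluster and the CD300 receptors in another. Every protein-coding gene between the outermost ones was read, in windows set after values were seen. From Trem1 to Trem2 (121.4 kb) all 6 annotated protein-coding genes had a row and 5 were tested. The tested neighbour, B430306N03Rik, was at 96.0, 11.5 and 18.4 CPM in the control recipients, against 5.04, 3.43 and 2.11 CPM in the Sept2C111A recipients, -3.57 on the log2 scale with SE 0.90 (edgeR adjusted p = 0.316) and -2.07 without control 1, and shared the peak in control 1. Trem3, an activating receptor that fell below the filter on low counts, was at 14.9 CPM in control 1 and at most 1.43 CPM in the other 5 libraries. Of the 5 tested genes, 4 were lower without overlap (11.9% of all genes). These were Trem1, Treml2, Treml4, which was picked for its fall, and the neighbour B430306N03Rik. Trem2, at the far end, was the single tested gene of the window whose groups overlapped.

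From Cd300a to Cd300lf, 11 protein-coding genes had a row and 8 were tested, of which 4 were lower without overlap (11.9% of all genes) and 4 overlapped. Of those 4, 3 are Cd300a, Cd300lb and Cd300lf themselves, and 1 of the 5 tested neighbours, Cd300c2, was lower without overlap. Cd300c2, an activating CD300 receptor, was at 34.5, 35.1 and 42.4 CPM in the control recipients, against 22.8, 13.6 and 10.4 CPM in the Sept2C111A recipients, with no peak in control 1 and a DESeq2 adjusted p of 0.0135, or 0.0544 without control 1. Cd300ld3, Cd300ld4 and Cd300ld5 had log2 fold changes of 0.40, 0.13 and -0.45 and edgeR adjusted p of 0.443, 0.959 and 0.815. Counts of Cd300ld3, Cd300ld4 and Cd300ld5 were fractional in all 6 libraries, so reads had been divided with similar genes.

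**Figure D4:**
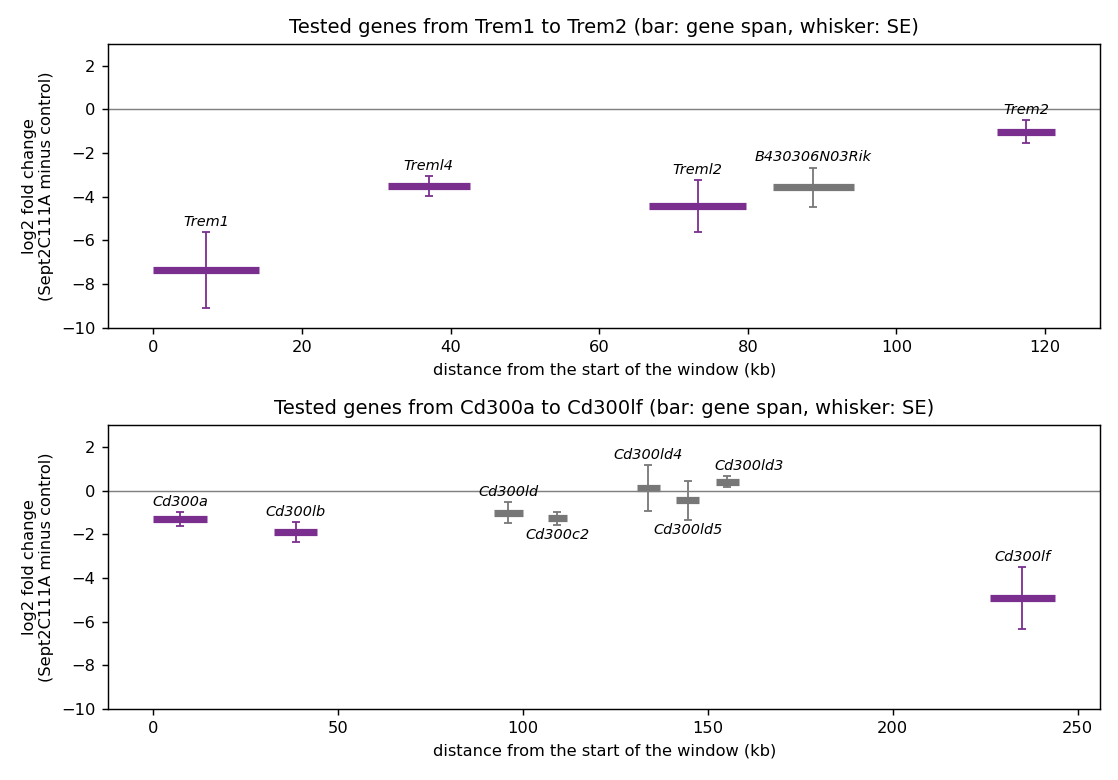
Log2 fold change (Sept2C111A minus control, edgeR) of each tested protein-coding gene along the Trem1 to Trem2 and Cd300a to Cd300lf windows, by distance from the window's start in kb; purple bars are the genes described here, grey bars their neighbours, whiskers the SE. In the upper window all 5 genes lie below 0, from -7.35 (Trem1) to -1.03 (Trem2), and in the lower window Cd300ld3 and Cd300ld4 lie above 0.

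Lists of related genes were read from the same fit, without a set test, beside a median over all genes tested of 0.000925 on the log2 scale. No listed gene passed edgeR's test after adjustment; at an unadjusted p under 0.05, which 8.83% of all genes reached in the lower direction, it found 7 of the 10 DAP12-coupled receptors, 8 of the 10 gamma chain-coupled receptors, 9 of the 12 inhibitory receptors and 19 of the 30 signalling genes. The count was 1 of 1 for TREM relatives, 1 of 6 for CD300 relatives and 4 of 7 for ligands and shedding enzymes. Counts below are read beside all genes tested, of which 49.9% were lower in mean and 11.9% lower without overlap, while DESeq2 called 2.89% lower (17.7% and 1.72% without control 1). Of the other receptors that pair with DAP12, 10 of 15 were tested and 9 were lower in mean, 7 of them without overlap between groups. Their median was -2.25, and DESeq2 called 5 (11.9% and 2.89% of all genes). Without control 1 the median was -1.23, with 8 lower without overlap and 1 call, and with any other library left out there were 1 to 7 calls, the fewest without Sept2C111A library 3. Clec5a, a lectin that senses viral glycans, was at 168, 9.99 and 26.9 CPM in the control recipients, against 8.25, 8.90 and 4.78 CPM in the Sept2C111A recipients (DESeq2 adjusted p = 0.014, or 0.178 without control 1). The activating signal-regulatory proteins Sirpb1b and Sirpb1c had log2 fold changes of -4.15 and -3.82 and Sirpb1a of -2.43, or -2.01, -2.81 and -1.59 without control 1. Their counts were fractional in all 6 libraries, so their single values are uncertain. In 7 of the 10 control 1 was the highest library.

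Of the receptors that use the gamma chain, 9 of 10 tested were lower, 6 without overlap (11.9% of all genes), with a median of -1.77, and DESeq2 called 4 (2.89% of all genes). Without control 1 the median was -1.11, with 6 lower without overlap and 2 calls, and with any other library left out there were 2 to 8 calls, the fewest without Sept2C111A library 3 and the most without control 2. Clec4d, a mycolate-sensing lectin, was at 118 ± 122.9 and 5.10 ± 1.67 CPM, and Clec4n, dectin-2, at 96.4 ± 42.3 and 13.02 ± 4.70 CPM (DESeq2 adjusted p = 3.32e-06 and 1.12e-07). Clec4e, a lectin for damaged cells, had a log2 fold change of -3.96, or -2.15 without control 1, where Clec4d stood at -3.23 and Clec4n at -2.79. Fcgr3, a low-affinity Fc receptor, was at 209 ± 175 and 76.9 ± 16.2 CPM and its groups overlapped, with a log2 fold change of -1.44, or -0.48 without control 1. Control 1 was the highest library in 8 of the 10.

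Of the 12 genes listed as inhibitory receptors of myeloid cells, all were tested, 11 were lower and 8 did not overlap (11.9% of all genes). Their median was -1.02, with 4 DESeq2 calls (2.89% of all genes). Leaving out control 1 gave a median of -0.75, 8 without overlap and 1 call, and leaving out any other library gave 0 to 9 calls, the fewest without Sept2C111A library 3 and the most without control 2. In 7 of the 12 control 1 was the highest library. Lilrb4a, an inhibitory receptor of myeloid cells, was at 615, 67.5 and 153.6 CPM in the control recipients, against 62.0, 48.1 and 36.8 CPM in the Sept2C111A recipients, a log2 fold change of -2.51, or -1.16 without control 1. Cd200r1, the receptor for CD200, was at 13.1 ± 7.25 and 3.77 ± 0.423 CPM (DESeq2 adjusted p = 0.0088, or 0.0457 without control 1). Its log2 fold change was -1.79, or -1.27 without control 1. Sirpa, which binds CD47, was at 209 ± 47.9 and 117 ± 24.5 CPM and Clec4a2, an inhibitory lectin, at 22.8 ± 5.47 and 12.1 ± 3.42 CPM; both were separate between groups and neither was called. Pecam1, which endothelium expresses at high level, was at 333 ± 72.0 and 427 ± 180 CPM.

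Downstream of the adaptors, 27 of 30 kinases, adaptors and phosphatases were lower in mean, 20 without overlap (11.9% of all genes), with a median of -1.02 and 11 DESeq2 calls (2.89% of all genes). Leaving out control 1 gave a median of -0.78, 20 without overlap and 1 call, Inpp5d, and leaving out any other library gave 0 to 18 calls, the fewest without Sept2C111A library 3 and the most without control 2. Syk, the kinase that binds ITAMs, was at 303, 85.2 and 110 CPM in the control recipients, against 76.0, 50.2 and 52.6 CPM in the Sept2C111A recipients (edgeR adjusted p = 0.316, DESeq2 adjusted p = 0.0702), with a log2 fold change of -1.48, or -0.70 without control 1. Inpp5d, which encodes the lipid phosphatase SHIP1 that opposes DAP12 and DAP10 signals, was at 106 ± 55.4 and 32.2 ± 5.51 CPM (DESeq2 adjusted p = 0.00309). Lcp2, the SLP-76 scaffold, and Vav1, an exchange factor for Rac, had log2 fold changes of -1.89 and -1.80, or -1.52 and -1.28 without control 1. Their DESeq2 adjusted p was 0.00612 and 0.00862, or 0.0706 and 0.0605 without control 1. The widely expressed Ptpn11 and Pik3r1 had log2 fold changes of 0.19 and 0.14. Control 1 was the highest library for 20 of the 30, as it was for the neutrophil markers, whose part in these lists was not tested.

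Relatives, ligands and shedding enzymes complete the lists. Among 6 tested CD300 relatives 3 were lower and 3 higher, with a median of -0.16, 1 lower without overlap and 1 DESeq2 call, both Cd300c2; the median was -0.34 without control 1 and 0.0899 without control 2. Cd300ld, an activating member, had a log2 fold change of -1.002 (-0.27 without control 1) and Cd300lg, an endothelial member, of 0.53, and both overlapped. The single tested TREM relative, Treml1 of platelets, was at 2.65 ± 1.43 and 0.328 ± 0.0623 CPM (DESeq2 adjusted p = 0.00254, called in 6 of 6 fits with 1 library left out), and 6 platelet markers summed to 107 to 348 CPM in the controls, compared with 46.5 to 57.8 CPM in Sept2C111A recipients, a part that was not tested. Of 7 tested ligands and enzymes 5 were lower, 4 without overlap, with a median of -0.27 and 1 DESeq2 call. Pglyrp1, a granule protein that binds TREM1, was at 12.5, 1.26 and 1.78 CPM in the control recipients, against 0.473, 0.442 and 0.556 CPM in the Sept2C111A recipients (DESeq2 adjusted p = 0.0144, or 0.126 without control 1). Adam10, which sheds TREM2, and Hmgb1, a proposed TREM1 ligand, had log2 fold changes of -0.68 and -0.27, and Clu, a lipoprotein ligand of TREM2, of 0.49. Apoe, another TREM2 ligand that is disrupted in all of these mice, gave residual counts with a log2 fold change of 0.80 (edgeR adjusted p = 0.331).

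**Figure D5:**
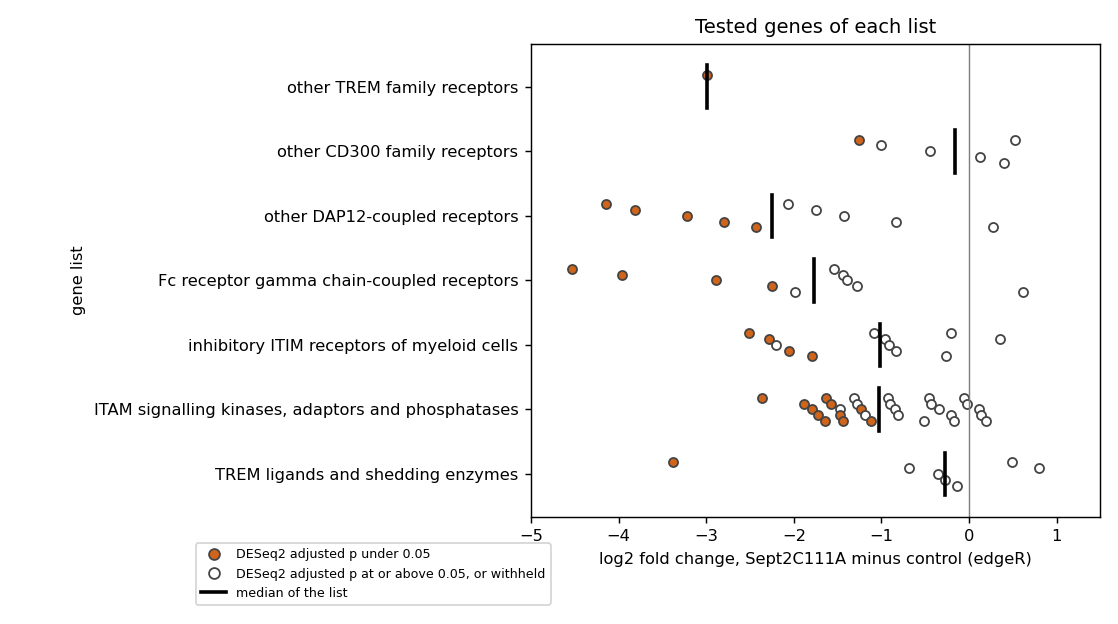
Log2 fold change (Sept2C111A minus control, edgeR) of each tested gene of 7 related lists, filled where DESeq2's adjusted p was under 0.05, with a bar at the list's median. The DAP12-coupled and gamma chain-coupled receptors lie farthest below 0 among lists of more than 1 gene, at medians of -2.25 and -1.77, and CD300 relatives lie around 0.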

How the data were processed

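Aortas were profiled by RNA sequencing, 3 libraries per marrow group. The authors deposited expected counts for each gene, 1 file per library, with no normalisation by the authors. Per the submitters' processing notes the tools were RSEM 1.3.1, Bowtie2 and DESeq2 1.4.5 on build mm10; annotation, read filters and strand setting were not given there. RSEM divides reads among similar genes by estimated abundance, so paralogs can hold fractional values. The header of the file deposited for Sept2C111A library 3 carries a different library number; the deposited sample was followed.

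Rounded expected counts were tested with edgeR 4.0.16 under R 4.3.3 (filterByExpr with a minimum count of 10, TMM, quasi-likelihood test between groups, two-sided, Benjamini-Hochberg over 14466 genes, threshold 0.05). Each SE is the log2 fold change over the root of F. DESeq2 1.42.0 and limma 3.58.1 (voom with quality weights) were run as other tests. On simulated counts the false share of DESeq2's calls was well above the threshold and that of edgeR's and limma's near it. Those counts were drawn with edgeR's own dispersion estimates and held no library set apart as control 1 was. They therefore cannot show how the tests behave with such a library, and their setting may favour edgeR. Replicates of a group differed far beyond counting noise (chi-square per degree of freedom 51.8 to 252), so none was a duplicate. The labels name no batch. The labels do not say which mouse gave each library; p-values measure the spread between these libraries.

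The genes and lists were chosen with earlier results of these data known. From each list the 3 tested genes of highest mean CPM and the 3 of smallest edgeR p are named; B430306N03Rik, Trem3 and single markers were named after their values were seen, as were the windows between cluster ends and the motifs. For Treml4 and Tyrobp the 5 genes of nearest pattern were taken, of which 1 is not reported here. Fcgr1, Fcer1a, Ncr1 and Pecam1 stand in both a related list and a marker list. Of the marker lists fixed, NK cell (9 genes, 1.44 to 6.15 CPM summed per library), T cell (7 with a row, 6.30 to 22.1 CPM), osteoclast (6) and endothelium (5 genes, 519 to 1200 CPM) were read for context. Gene positions and merged exon lengths come from GENCODE M21 and upstream sequences from RefSeq's table for GRCm38.p6, where 8 of the 10 genes had an entry.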

Additional observations from a re-analysis of the deposited data

How the results depend on the processing

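With edgeR, 0 genes of all and 0 of the 9 genes other than Treml4 passed under each alternative run (RLE scaling, library totals only, no filter, each library left out, controls 1 and 3 both left out), with smallest adjusted p over all genes from 0.0814 (without control 2) to 0.683; limma-voom called 0 too (0.263). DESeq2 called 570 genes and 7 of the 9. Leaving out 1 library in turn, DESeq2 called from 116 to 1767 genes and from 2 to 7 of the 9 (330, 1767 and 339 genes and 6, 7 and 4 of the 9 without controls 1, 2 and 3; 241, 650 and 116 genes and 7, 3 and 2 of the 9 without Sept2C111A libraries 1, 2 and 3); without Sept2C111A library 3 it called Trem1 and Treml2 alone, and without Sept2C111A library 2 Cd300lb as well. With controls 1 and 3 both left out, a setting chosen after seeing the data in which the lone control is assumed to vary like the other group, DESeq2 called 28 genes and 0 of the 9, and the log2 fold change of Hcst turned to 0.10 with edgeR (0.1027) and DESeq2 (0.09696). Of the 10 genes described, the number lower without overlap was 8 under RLE scaling and library totals and 8 or 9 with 1 library left out. Without control 2 the median of the CD300 relatives turned from -0.16 to 0.0899 (range with 1 library left out -0.445 to 0.0899), and without Sept2C111A library 1 the log2 fold change of Pik3r1 turned from 0.14 to -0.07784 (range -0.07784 to 0.4071); both settings were chosen for these values after seeing the data. Other scalings moved the median log2 fold change of all genes by less than 0.04 (-0.0038 and 0.0369).

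The Trem1 to Trem2 difference of -4.81 ranged from -2.67 to -6.12 with 1 library left out and from -3.51 to -5.09 with pseudocounts of 1 and 0.01 CPM. Same-numbered libraries share only a number: their deviations from the group means correlated at 0.0173, 0.129 and -0.166 across genes. With the replicate block edgeR called 0 genes (smallest adjusted p 0.383), and the blocked Trem1 to Trem2 difference was -4.81 with an exact sign-flip p of 0.25, the smallest that 3 pairs allow. Depth limits Hcst, Trem1 and Treml4 in Sept2C111A recipients, which rest on 4 to 15 reads per library.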

Other observations

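Control 3 held receptors and fusion genes known from osteoclasts and multinucleated macrophages, a pattern that was noticed in the values and not tested. Oscar, an osteoclast receptor that signals through the gamma chain, was at 8.80 CPM in control 3, at 0.167 and 0.684 CPM in controls 1 and 2 and at 0.420, 0.166 and 0.223 CPM in Sept2C111A libraries 1, 2 and 3. Siglec15, an osteoclast receptor that signals through DAP12, was at 3.26 CPM in control 3 and at 0.315 CPM or less in the other 5 libraries. Dcstamp and Ocstamp, which drive the fusion of macrophages into osteoclasts, were at 9.69 and 10.1 CPM in control 3 and under 1 CPM in each of the others. Ctsk, the collagen-degrading cathepsin K, was at 833.5 CPM there and at 80.7 to 182 CPM elsewhere, and Calcr, the calcitonin receptor, was at 0.346 CPM in control 3, at 0.112 CPM in control 1 and at 0 in control 2 and in every Sept2C111A library. Trem2 was also highest in control 3.

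Markers of mast cells and basophils were not uniform. Of 7 tested, 5 had a higher mean in Sept2C111A recipients and 2 a lower one, and the groups overlapped for every marker but Mcpt4. Cpa3 was at 4.57 ± 1.41 and 9.001 ± 3.23 CPM in control and Sept2C111A recipients and Mcpt4 at 5.87 ± 2.94 and 13.04 ± 3.54 CPM (edgeR adjusted p = 0.329 and 0.320), and Fcer1a, the ligand-binding chain of the IgE receptor, had a log2 fold change of 0.62 (edgeR adjusted p = 0.631). Hdc, the histidine decarboxylase of basophils and neutrophils, was at 45.4 ± 62.2 and 3.13 ± 2.02 CPM (DESeq2 adjusted p = 0.0105), and Kit at 14.1 ± 8.09 and 9.92 ± 3.87 CPM. Mcpt8, a basophil protease, was at 0.346 CPM in control 3, at 0.0525 CPM in Sept2C111A library 1 and at 0 in the other 4 libraries. Sept2C111A library 1 was the highest of its group for 9 of the 10 genes described, the exception being Hcst.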
